A study of Mus musculus with 24 samples.

Results

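Levels of CC chemokine ligand transcripts were read from 24 Affymetrix Mouse Exon 1.0 ST arrays, each hybridised with RNA of the right hippocampus of a different 10-day-old BALB-c mouse. The set consisted of 9 genes of chromosome 11 (Ccl2, Ccl3, Ccl4, Ccl5, Ccl6, Ccl7, Ccl9, Ccl11 and Ccl12), and a gene was taken as measured where a row of the table carried its symbol and no other. Of the 9 genes, 8 had such a row, among 14939 rows with a single symbol and 23238 rows in all. Ccl6 was not measured on its own, because the row that carries its symbol also carries that of Ccl9. No measured ligand had more than 1 row.

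The 4 groups held 6 mice each and are called by the start of their titles. Epo_Y mice are labelled as brain-injured and given high-dose recombinant erythropoietin (EPO), a hormone that drives red cell formation and has been studied as a neuroprotectant. Sham_Y mice are labelled as sham-injured and given the same EPO. Epo_N mice are labelled as brain-injured without EPO, and Sham_N mice as sham-injured without EPO. The hippocampus lay on the side on which the carotid artery was ligated, and the sources used here give neither the dose and timing of EPO nor the day of injury. The words of the titles can also be read as treatment followed by injury. In that reading Sham_Y would be injured mice without EPO and Epo_N would be sham-injured mice with EPO, and no measurement used here settles it. The values are the same under both readings, and the meaning of each comparison is given under both.

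CC chemokines are small secreted proteins that draw leukocytes along a gradient by binding G protein-coupled receptors. Ccl2, Ccl7 and Ccl12 act on CCR2 and recruit monocytes, Ccl11 acts on CCR3 and recruits eosinophils, and Ccl3, Ccl5, Ccl6 and Ccl9 act on CCR1. Ccl4 is an inflammatory ligand closely related to Ccl3. In the brain they are made by activated microglia, macrophages, astrocytes and endothelium, and many of them are induced through NF-kB. In the RefSeq annotation of GRCm38.p6 Ccl2, Ccl7 and Ccl11 were direct neighbours, with 1 other gene between Ccl11 and Ccl12. After 53 further genes came Ccl5, then Ccl9 and Ccl6 side by side, then Ccl3 and Ccl4, whose annotated spans overlapped, so that their values are uncertain to the extent that probes are shared.

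RefSeq promoter entries were found for 4 of the 9 genes, of which 3 were measured. The 250 bases before the start of these 3 are shown because each belongs to a gene that was higher in every Sham_Y mouse than in any Sham_N mouse. They are written 5′ to 3′ on the strand of the gene and come from RefSeq, GRCm38.p6, a reference of another strain than the mice used. Capitals mark the matches to the motifs searched. The Ccl12 window is chr11:82101595-82101844 on the plus strand, that of Ccl3 chr11:83649379-83649628 on the minus strand, and that of Ccl9 chr11:83578637-83578886 on the minus strand.
Ccl12: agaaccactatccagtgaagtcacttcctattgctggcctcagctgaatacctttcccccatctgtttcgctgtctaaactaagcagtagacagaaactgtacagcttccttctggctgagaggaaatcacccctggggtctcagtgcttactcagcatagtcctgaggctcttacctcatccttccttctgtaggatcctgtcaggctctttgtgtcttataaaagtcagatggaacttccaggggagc
Ccl3: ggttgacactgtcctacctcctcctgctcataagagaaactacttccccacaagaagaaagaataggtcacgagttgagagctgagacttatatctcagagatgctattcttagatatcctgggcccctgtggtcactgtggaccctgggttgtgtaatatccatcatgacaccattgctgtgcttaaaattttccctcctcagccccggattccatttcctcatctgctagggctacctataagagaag
Ccl9: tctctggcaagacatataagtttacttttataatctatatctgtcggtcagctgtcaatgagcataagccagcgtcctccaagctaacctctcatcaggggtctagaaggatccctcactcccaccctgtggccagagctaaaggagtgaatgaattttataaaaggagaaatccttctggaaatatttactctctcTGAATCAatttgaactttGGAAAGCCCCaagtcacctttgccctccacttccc
The letters searched on both strands were TGANTCA for AP-1 and TTCNNNGAA for STAT factors, beside the consensus motifs of NF-kB and of the interferon response element. The Ccl9 window held 1 AP-1 match that begins 53 bases before the start and 1 NF-kB match that begins 35 bases before it, read on the other strand and without overlap. No match to any of the 4 motifs was found in the windows of Ccl3, Ccl6 and Ccl12. Among all 32851 promoter windows of the same length, 6.75% held the AP-1 letters, 7.02% the STAT letters, 3.90% the NF-kB motif and 2.98% the interferon response motif. A match describes the letters and shows no binding.

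All values below are log2 levels made by the authors with RMA, so that a difference of 1 is a 2-fold change, and differences are given ± their SE from limma. Levels of different genes come from different probes and are not set against each other. Array medians ran from 5.05 to 5.43, and those of Sham_Y mice (5.30 to 5.43) all lay above those of Sham_N mice (5.12 to 5.25). The median correlation of an array with its own group ran from 0.974 to 0.990. Epo_Y replicate 3 had the lowest of these correlations. Sham_N replicate 5 had a level of 6.52 for Ttr, the choroid plexus gene for transthyretin, against 12.5 to 13.3 on the other arrays. Without both arrays the same number of ligands (7) passed the threshold in each of the main comparisons below, and 5 instead of 7 in the interaction.

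Sham_Y was compared with Sham_N, which is the effect of EPO in sham-injured mice as labelled and that of injury without EPO in the other reading. In limma over all rows, 7 of the 8 measured ligands were higher in Sham_Y mice and 0 were lower, at an adjusted p under 0.05. Of all rows, 11.5% were higher by the same rule. The median difference over the 8 ligands was 3.09, against 0.03 over all rows. The sizes ran from 4.54-fold for Ccl2 to 124-fold for Ccl3, and Ccl5 did not pass the threshold. For each of the 7, all 6 Sham_Y mice were above all 6 Sham_N mice, which held for 7.7% of all rows. The exact two-sided permutation p was 0.00216 for each of the 7, the smallest that 924 divisions of 12 arrays can give. Over the ligands 48 such tests were made, beside those of the row shared by Ccl6 and Ccl9.

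**Figure D1:**
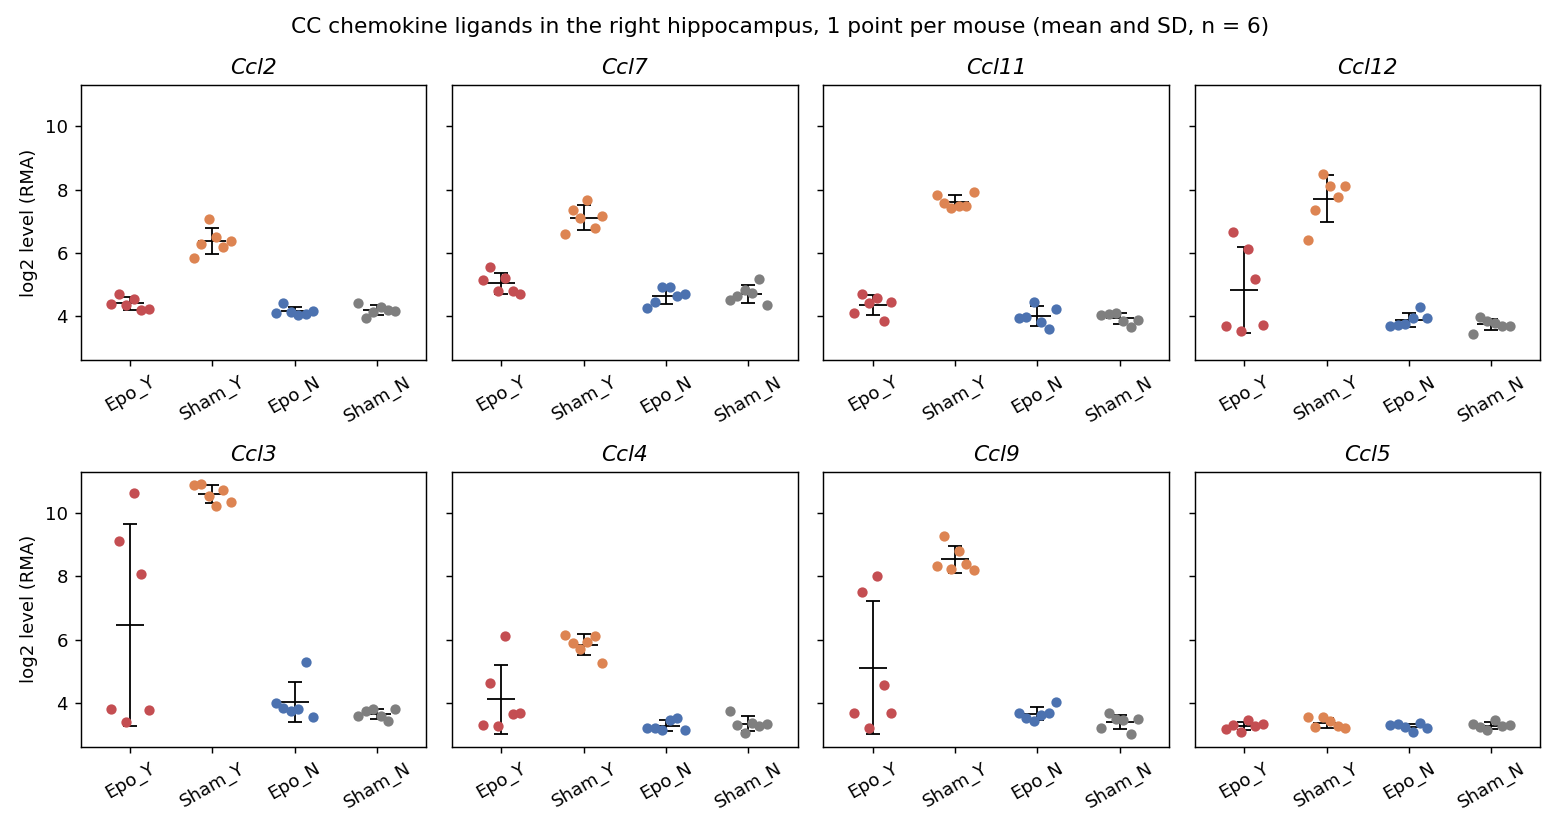
Log2 level (vertical axis) of the 8 measured ligands in each mouse, by group, with the group mean and SD (n = 6). Sham_Y points lie above all Sham_N and Epo_N points in 7 panels, Epo_Y points of Ccl12, Ccl3, Ccl4 and Ccl9 are spread widely, and Ccl5 levels lie between 3.07 and 3.57 in all 24 mice.

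Among the monocyte attractants, Ccl2 ranged from 5.84 to 7.07 in Sham_Y mice (median 6.32), against 3.95 to 4.42 in Sham_N mice (median 4.17). The difference of 2.18 ± 0.14 (SE) was 4.54-fold, with a limma adjusted p of 4.62e-10. Ccl7, whose gene lies next to Ccl2, ranged from 6.59 to 7.67 in Sham_Y mice (median 7.14), against 4.35 to 5.19 in Sham_N mice (median 4.68). It was 5.30-fold higher, a difference of 2.41 ± 0.18 with a limma adjusted p of 3.19e-09. For both genes a gap of more than 1 log2 unit separated the groups. Ccl12, the mouse CCR2 ligand with no human gene of the same name, ranged from 6.41 to 8.51 in Sham_Y mice (median 7.93), against 3.45 to 3.97 in Sham_N mice (median 3.74). It was 15.7-fold higher, a difference of 3.97 ± 0.43 with a limma adjusted p of 3.18e-07. The lowest Sham_Y value of Ccl12, in replicate 1, was still well above every Sham_N value.

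Ccl11, the eosinophil attractant, ranged from 7.42 to 7.93 in Sham_Y mice (median 7.54), against 3.66 to 4.10 in Sham_N mice (median 3.96). It was 12.9-fold higher, with a difference of 3.69 ± 0.15 and a limma adjusted p of 4.99e-14. That was the smallest adjusted p of all rows in this comparison. Both groups were narrow, with SDs of 0.22 in Sham_Y mice and 0.17 in Sham_N mice.

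Among the remaining inflammatory ligands, Ccl3 ranged from 10.23 to 10.91 in Sham_Y mice (median 10.63), against 3.42 to 3.81 in Sham_N mice (median 3.66). It was 124-fold higher, a difference of 6.95 ± 0.87 with a limma adjusted p of 2.59e-06. Ccl9 ranged from 8.22 to 9.26 in Sham_Y mice (median 8.36), against 3.02 to 3.68 in Sham_N mice (median 3.48). Its difference of 5.14 ± 0.58 was 35.3-fold, with a limma adjusted p of 6.36e-07. Ccl4 ranged from 5.25 to 6.14 in Sham_Y mice (median 5.91), against 3.05 to 3.75 in Sham_N mice (median 3.32). Its difference of 2.49 ± 0.32 was 5.62-fold, with a limma adjusted p of 3.34e-06. The SEs of Ccl3, Ccl9 and Ccl4 are large because limma shares 1 spread over the 4 groups and these genes varied widely in Epo_Y mice.

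Ccl5, an attractant of T cells and monocytes, averaged 3.38 ± 0.16 in Sham_Y mice and 3.29 ± 0.11 in Sham_N mice (SD, n = 6 each). The groups overlapped, and the difference of 0.09 had a 95% interval from -0.08 to 0.26 and a limma adjusted p of 0.512. The exact permutation p was 0.264. In all 24 mice Ccl5 lay between 3.07 and 3.57, below every array median. Without detection calls an unchanged level cannot be told from one too low to measure. The row shared by Ccl6 and Ccl9 averaged 6.66 ± 0.43 in Sham_Y mice and 3.23 ± 0.10 in Sham_N mice (SD, n = 6 each). It cannot be told which of the 2 genes that row follows, so it is counted for neither.

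Each title also holds a code (7 codes in all, from 3A to 3G) that the labels do not explain, and 11 arrays share code 3D. Within code 3D, with 2 Sham_Y and 2 Sham_N arrays, the differences of Ccl2, Ccl7, Ccl11, Ccl12 and Ccl9 were 2.74, 2.67, 3.35, 4.40 and 4.92 and passed the threshold. Those of Ccl3 and Ccl4 were 6.62 and 2.63, of the same direction and similar size, with limma adjusted p values of 0.0641 and 0.0764. In the fit of code 3D alone 577 of 23238 rows were higher by the same rule, against 2679 in the fit of all 24 arrays. No other setting in which these 7 ligands were tested ended a call in this comparison.

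Epo_Y was compared with Sham_Y, which is the effect of injury in mice given EPO as labelled and that of EPO in injured mice in the other reading. The same 7 ligands were lower in Epo_Y mice by limma, while 7.83% of all rows were lower by the same rule. This comparison shares the Sham_Y mice with the one above. The median difference over the 8 ligands was -2.48, against -0.01 over all rows. For Ccl2, Ccl7, Ccl9 and Ccl11 all 6 Epo_Y mice were below all 6 Sham_Y mice, which held for 2.75% of all rows.

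Ccl11 ranged from 3.86 to 4.71 in Epo_Y mice (median 4.44), against 7.42 to 7.93 in Sham_Y mice. It was 9.66-fold lower, a difference of -3.27 ± 0.15 with a limma adjusted p of 7.30e-13. Ccl2 ranged from 4.20 to 4.71 in Epo_Y mice (median 4.37), against 5.84 to 7.07 in Sham_Y mice, and was 3.91-fold lower. Ccl7 ranged from 4.69 to 5.57 in Epo_Y mice (median 4.99), against 6.59 to 7.67 in Sham_Y mice, and was 4.21-fold lower. The differences of these 2 CCR2 ligands were -1.97 ± 0.14 and -2.07 ± 0.18, with limma adjusted p values of 4.90e-09 and 7.14e-08. For the 3 genes neither group came near the other.

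Ccl3 had levels of 3.82, 9.10, 3.39, 10.63, 8.09 and 3.77 in Epo_Y replicates 1 to 6, against 10.23 to 10.91 in Sham_Y mice. Replicate 4 lay within the Sham_Y range, replicates 2 and 5 lay below it, and replicates 1, 3 and 6 lay near the range of the Sham_N mice. The mean difference was -4.14 ± 0.87, or 17.6-fold, with a limma adjusted p of 0.00177 and an exact permutation p of 0.00866. Ccl9 had levels of 3.69, 7.50, 3.22, 8.02, 4.56 and 3.68 in the same Epo_Y mice, against 8.22 to 9.26 in Sham_Y mice. Again replicates 2 and 4 were the high ones, and the mean difference was -3.43 ± 0.58, or 10.8-fold, with a limma adjusted p of 0.000209.

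Ccl12 had levels of 3.70, 6.67, 3.54, 6.13, 5.18 and 3.72 in Epo_Y replicates 1 to 6, against 6.41 to 8.51 in Sham_Y mice. Its replicate 2 lay above the lowest Sham_Y mouse. The mean difference was -2.89 ± 0.43, or 7.39-fold, with a limma adjusted p of 4.86e-05 and an exact permutation p of 0.00433. Ccl4, whose gene lies beside Ccl3, had levels of 3.30, 4.64, 3.28, 6.11, 3.65 and 3.68 in the Epo_Y mice, against 5.25 to 6.14 in Sham_Y mice. Its replicate 4 lay among the highest Sham_Y mice. The mean difference was -1.72 ± 0.32, or 3.31-fold, with a limma adjusted p of 0.000518 and an exact permutation p of 0.0108.

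Ccl5 averaged 3.27 ± 0.14 in Epo_Y mice and 3.38 ± 0.16 in Sham_Y mice (SD, n = 6 each), with overlapping ranges and a limma adjusted p of 0.444. Within title code 3D, with 3 Epo_Y and 2 Sham_Y arrays, 4 ligands passed the threshold (Ccl2, Ccl7, Ccl11 and Ccl12). In that fit 333 of 23238 rows were lower by the same rule, against 1819 in the fit of all 24 arrays. Ccl3, Ccl4 and Ccl9 had differences of -3.01, -1.46 and -3.25 there, with limma adjusted p values of 0.396, 0.317 and 0.157.

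**Figure D2:**
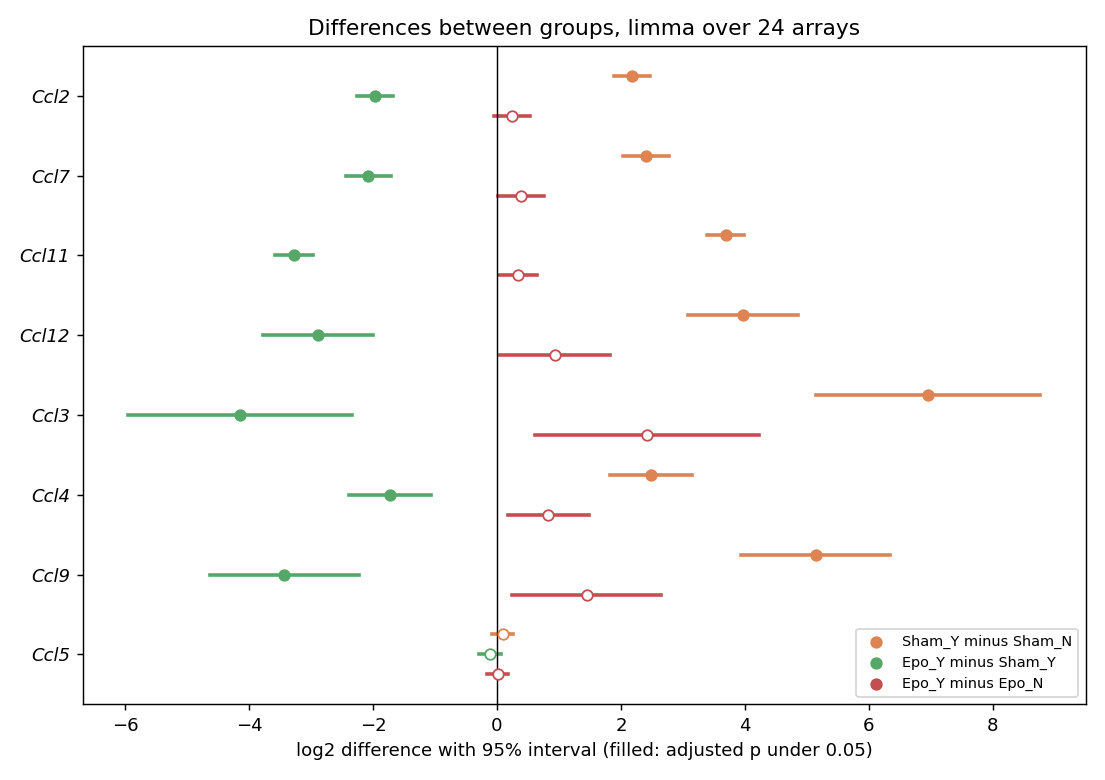
Log2 difference (horizontal axis) with its 95% interval for the 8 measured ligands in 3 comparisons, filled where the limma adjusted p was under 0.05. Sham_Y minus Sham_N and Epo_Y minus Sham_Y are filled on opposite sides of 0 for 7 ligands, and Epo_Y minus Epo_N is open for all 8.

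The Epo_Y mice differed among themselves by ligand. On a scale where the Sham_N mean is 0% and the Sham_Y mean 100% of the log2 difference, the Epo_Y mean lay at 9.97% for Ccl2, 11.3% for Ccl11 and 13.8% for Ccl7. It lay at 27.3% for Ccl12, 30.7% for Ccl4, 33.3% for Ccl9 and 40.5% for Ccl3. Single mice reached 100.4% for Ccl3 and 110.9% for Ccl4 in replicate 4, and the lowest mice of these 2 genes lay at -3.74% and -2.54%. No Epo_Y mouse exceeded 35.9% for Ccl2, Ccl7 or Ccl11, and the highest for Ccl11 was at 21.1%.

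The spread in Epo_Y mice followed the same division. The SD in Epo_Y mice was 20.6 times that in Sham_N mice for Ccl3, 8.98 times for Ccl9, 7.81 times for Ccl12 and 4.83 times for Ccl4. Against the SD in Epo_N mice it was 5.07 times for Ccl3, 10.4 times for Ccl9, 5.98 times for Ccl12 and 6.66 times for Ccl4, with a median over all rows of 1.35. Against Sham_N mice it was 1.86 times for Ccl11, 1.24 times for Ccl5, 1.21 times for Ccl2 and 1.15 times for Ccl7, and the median over all rows was 1.23. A ratio to Sham_N as large as that of Ccl4 or larger was found in 0.559% of all rows. No test of the spread was made.

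Epo_Y replicate 4 lay above all 12 Epo_N and Sham_N mice for 8 of the 8 ligands, replicate 2 for 7 and replicate 5 for 3 (Ccl3, Ccl9 and Ccl12). Replicates 1, 3 and 6 did so for 0 of the 8. For Ccl5 the margin of replicate 4 was small, 3.464 against 3.459 in the highest of the 12. The share of all rows for which each mouse did so was not counted, so these counts are descriptions only. The array medians of replicates 2 and 4 also lay above those of all 12 Epo_N and Sham_N mice. High and low mice occurred within the same title code, since replicates 1 and 2 carry code 3A and replicates 3, 4 and 5 carry code 3D. The array medians of replicates 1 to 6 were 5.21, 5.33, 5.05, 5.37, 5.28 and 5.17, so that the 3 mice with the highest medians were also those with the highest Ccl3. These medians ran from 5.05 to 5.37, and the Ccl3 levels of the same mice from 3.39 to 10.63. The parts of the title code and of the array median in the spread of the Epo_Y mice were not tested. The fit with each array centred on its median, given below, compares group means and does not address this spread.

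**Figure D3:**
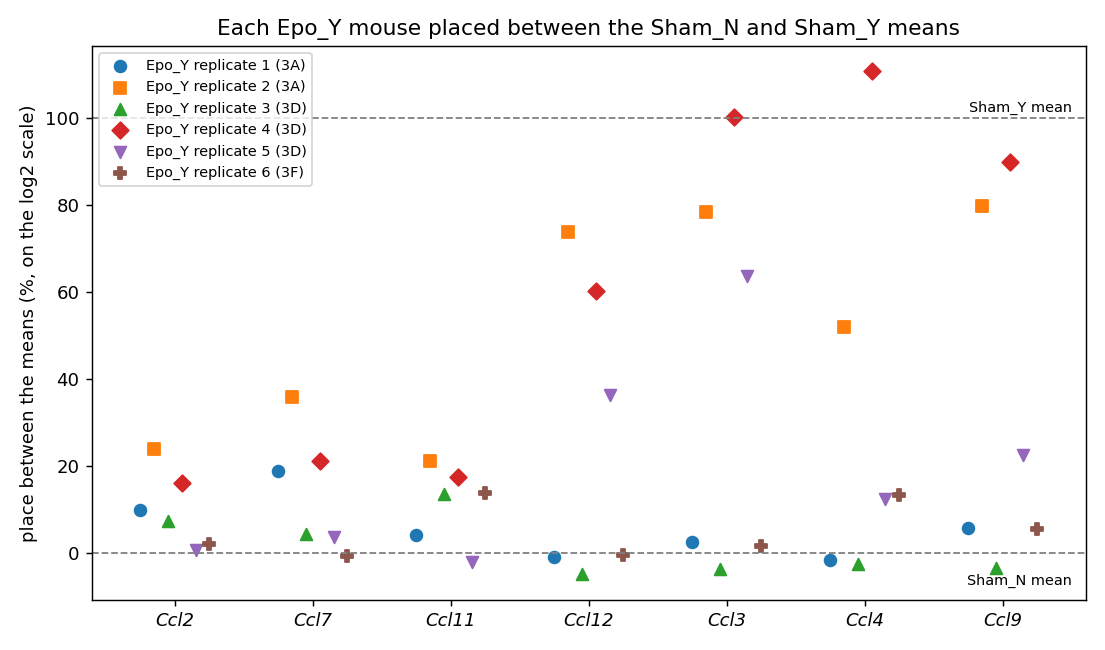
Place of each Epo_Y mouse (1 marker per mouse, title code in brackets) between the Sham_N mean (0%) and the Sham_Y mean (100%) on the log2 scale, for the 7 ligands that differed between those groups. Replicates 2 and 4 lie highest for all 7 ligands, and the mice are far apart for Ccl12, Ccl3, Ccl4 and Ccl9 but not for Ccl2, Ccl7 and Ccl11.

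Epo_N was compared with Sham_N, which is the effect of injury without EPO as labelled and that of EPO in sham-injured mice in the other reading. No ligand passed the threshold in limma, as for all other rows (0% called), and 0 of 8 ligands and 1803 of 23238 rows had an unadjusted p under 0.05. Ccl2 averaged 4.16 ± 0.13 in Epo_N mice and 4.19 ± 0.16 in Sham_N mice (SD, n = 6 each). Ccl11 averaged 4.01 ± 0.30 in Epo_N mice and 3.93 ± 0.17 in Sham_N mice. The 95% intervals of the differences ran from -0.32 to 0.26 for Ccl2 and from -0.23 to 0.38 for Ccl11, and from -1.42 to 2.19 for Ccl3. The Ccl3 interval does not exclude a change of more than 2-fold, and neither do those of Ccl9 (-0.94 to 1.47) and Ccl12 (-0.74 to 1.03). Exact permutation p values for the 8 ligands ran from 0.0628 for Ccl9 to 0.742 for Ccl2. The row shared by Ccl6 and Ccl9, counted for neither gene, had a difference of 0.28 with a limma adjusted p of 0.768. Its exact permutation p was 0.00866, before any adjustment for the number of tests.

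Epo_Y was also compared with Epo_N, which is the effect of EPO in injured mice as labelled and that of injury in mice given EPO in the other reading. No ligand passed the threshold in limma and 0% of all rows did, while 6 of 8 ligands and 1892 of 23238 rows had an unadjusted p under 0.05. The differences were positive for the 8 ligands and ran from 0.02 for Ccl5 to 2.43 for Ccl3. Ccl3 had an adjusted p of 0.553 and an exact permutation p of 0.160. Exact permutation p values were 0.0281 for Ccl2, 0.0368 for Ccl4 and 0.0498 for Ccl7, before any adjustment for the number of tests. Against Sham_N, Epo_Y likewise gave no ligand past the threshold in limma (0% of all rows called), with 5 of 8 ligands and 1374 rows at an unadjusted p under 0.05. That comparison sets injury with EPO against neither, under both readings. The lowest exact permutation p in it was 0.0238, for Ccl11, whose difference was 0.42 with a 95% interval from 0.11 to 0.72.

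Sham_Y was higher than Epo_N for the same 7 ligands in limma, where 8.28% of all rows were higher. As labelled this sets sham-injured mice with EPO against injured mice without it, and the other reading exchanges these groups. The differences ran from 2.21 for Ccl2 to 6.56 for Ccl3, and Ccl5 had an adjusted p of 0.336. In the order of the group means, Sham_Y came first and Epo_Y second for each of these 7 ligands. Epo_N and Sham_N came below them in either order, and the ranges of these 2 groups overlapped for each ligand. Sham_Y stood apart from its neighbour in that order by the limma test, whereas Epo_Y and Epo_N did not.

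The interaction asked whether the difference of Epo_Y from Epo_N departed from that of Sham_Y from Sham_N. Under both readings it asks whether injury and EPO add on the log2 scale. It was below 0 and passed the threshold in limma for 7 of the 8 ligands, while 5.75% of all rows were below 0 by the same rule. It was -3.35 ± 0.21 for Ccl11 (adjusted p 8.81e-10), -1.94 ± 0.20 for Ccl2 and -2.01 ± 0.25 for Ccl7. It was -3.03 ± 0.60 for Ccl12 and -3.69 ± 0.82 for Ccl9. Ccl3 and Ccl4 had interactions of -4.53 ± 1.24 and -1.66 ± 0.45, with limma adjusted p values of 0.0251 and 0.0246. The calls of Ccl3 and Ccl4 were lost without Epo_Y replicate 6, which left 5 ligands. With the title code as a fixed block the calls of Ccl3, Ccl4 and Ccl9 were lost. Within title code 3D that of Ccl12 was lost as well. Of all 23238 rows, 738 were below 0 by the same rule with the block and 55 within code 3D, against 1336 without either. Ccl5 had an interaction of -0.08 with an adjusted p of 0.756.

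Of the receptors of CC chemokines, 12 listed genes were measured. In Sham_Y mice 3 were higher than in Sham_N mice and 1 was lower, while 11.5% of all rows were higher and 7.6% lower, and the median difference of the 12 was 0.03, as over all rows. Ccr1, the receptor of Ccl3 and Ccl9, averaged 4.41 ± 0.71 in Sham_Y mice and 2.72 ± 0.08 in Sham_N mice (SD, n = 6 each), a difference of 1.69 with a limma adjusted p of 4.34e-06. Ccr2, the receptor of Ccl2, Ccl7 and Ccl12 on inflammatory monocytes, averaged 3.61 in Sham_Y mice and 2.58 in Sham_N mice, with an adjusted p of 0.000708. Ccrl2, a receptor-like protein that binds ligands without usual signalling, was higher by 0.48 with an adjusted p of 0.00157. Ccr6, the receptor of Ccl20, had a difference of -0.27 with an adjusted p of 0.0341, and that call was lost in 11 of 37 other settings. Ccr3, the receptor of Ccl11, had a difference of -0.17 with an adjusted p of 0.632. In Epo_Y mice Ccr1, Ccr2 and Ccrl2 were lower than in Sham_Y mice, by differences of -1.43, -1.02 and -0.40. The calls of Ccr2 and Ccrl2 in both comparisons were lost within title code 3D, and that of Ccrl2 in Epo_Y minus Sham_Y in 4 settings in all. Centring each array on its median moved the Sham_Y minus Sham_N difference of Ccrl2 to 0.31 and that of Ccr6 to -0.44.

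Of 10 other CC ligands 9 were measured. Ccl24, a second CCR3 ligand, was higher in Sham_Y than in Sham_N mice by 0.49 (adjusted p 0.000131), and Ccl28, a ligand made by epithelia, had a difference of -0.54 (adjusted p 0.00307). The others (Ccl1, Ccl8, Ccl17, Ccl20, Ccl22, Ccl25 and Ccl26) did not pass the threshold, and their differences ran from -0.11 for Ccl22 to 0.18 for Ccl20. Ccl8, a further member of the group of monocyte attractants, averaged 2.83 in Sham_Y mice and 2.79 in Sham_N mice. The median difference of the 9 was -0.08. Within title code 3D neither Ccl24 nor Ccl28 passed the threshold, and centring moved the difference of Ccl24 to 0.32.

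**Figure D4:**
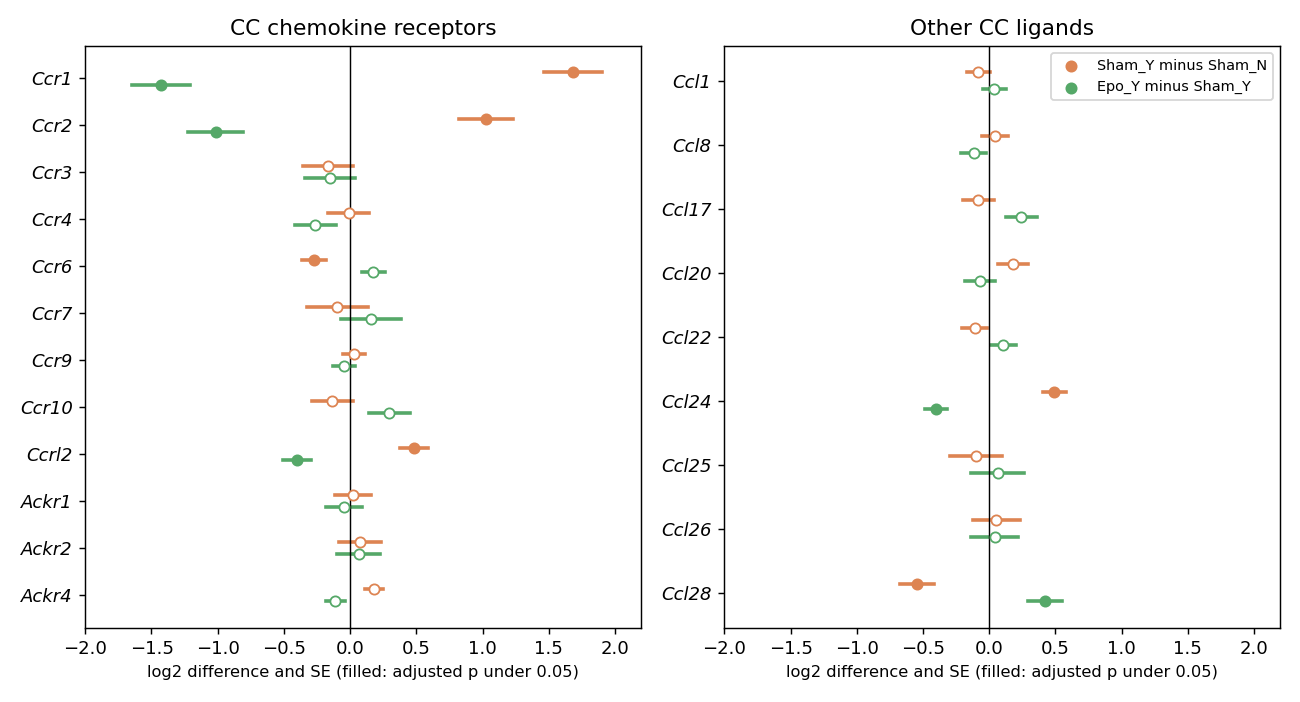
Log2 difference and SE (horizontal axis) of the measured CC chemokine receptors (left) and of the other CC ligands (right), for Sham_Y minus Sham_N and Epo_Y minus Sham_Y, filled where the limma adjusted p was under 0.05. Ccr1 and Ccr2 have the differences of largest size among the receptors, 1.69 and 1.03 in Sham_Y minus Sham_N.

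Of 16 listed genes of the pathways that induce these ligands (cytokines, receptors, NF-kB subunits and NF-kB inhibitors), 14 were measured. By limma 13 of the 14 were higher in Sham_Y than in Sham_N mice, while 11.5% of all rows were. The median difference of the 14 was 1.34, against 0.03 over all rows. Tnfrsf1a, the main receptor of TNF, was higher by 2.65 (adjusted p 7.77e-09). Myd88, the adaptor of Toll-like and interleukin receptors, was higher by 2.08, and Il1r1, the interleukin receptor that signals through it, by 2.04. Tnf itself averaged 4.80 in Sham_Y mice and 3.26 in Sham_N mice, and its call was lost within title code 3D. Nfkbia, an inhibitor that holds NF-kB in the cytoplasm, was among the 13, higher by 1.44 (adjusted p 1.26e-05). Tnfaip3, another inhibitor of NF-kB signalling, had a difference of 0.39 with an adjusted p of 0.0753. In Epo_Y mice 11 of the 14 were lower than in Sham_Y mice, while 7.83% of all rows were. The mean level of the 14 genes was 4.72, 5.32, 4.52, 5.44, 4.92 and 4.67 in Epo_Y replicates 1 to 6, with replicates 4 and 2 highest, as for the ligands other than Ccl5.

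Marker genes of some cell types were higher in Sham_Y than in Sham_N mice, as the ligands were, and those of other types were not. In bulk tissue a smaller number of cells of a type and less RNA per cell cannot be told apart. By limma at the same threshold 11.5% of all rows were higher in Sham_Y mice. Markers of perivascular macrophages were higher in Sham_Y than in Sham_N mice for 6 of 6 genes, and their mean level ran from 5.28 to 5.92 in Sham_Y mice against 4.11 to 4.56 in Sham_N mice. The median difference of these 6 genes was 0.96. Markers of monocytes and neutrophils, a list that shares Ccr2 with the receptors, were higher for 5 of 7, at mean levels of 3.05 to 4.13 in Sham_Y mice against 2.78 to 3.14 in Sham_N mice. Their count was 3 after centring and 2 with the title code as a block. Of all 23238 rows, 1790 were higher after centring and 1834 with the block, against 2679 in the main fit. Endothelial and pericyte markers were higher for 6 of 8, at 7.83 to 8.21 in Sham_Y mice against 6.77 to 7.45 in Sham_N mice, and astrocyte markers for 3 of 6. The median differences were 0.44, 0.60 and 0.51 for these 3 lists, against 0.03 over all rows.

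Microglial markers split, with 3 of 9 higher (Itgam, Fcrls and Aif1) and 3 lower (Siglech, Tmem119 and P2ry12) and a median difference of 0.27. Markers of hippocampal neurons were lower for 9 of 12 genes, against 7.6% of all rows, with a median difference of -0.78, at mean levels of 8.65 to 8.95 in Sham_Y mice against 9.59 to 9.92 in Sham_N mice. Over all 24 arrays the mean level of these defining transcripts of the labelled tissue was 8.65 or higher. Oligodendrocyte markers were higher for 2 of 8, for 0 when the title code was a block, and for 1 after centring, which also made 1 lower. Of all 23238 rows, 1834 were higher with the block, and 1790 were higher and 4286 lower after centring. Lymphocyte markers passed the threshold for 0 of 8, choroid plexus markers for 0 of 6 and erythroid markers for 0 of 3. The array table gives no detection calls, so that no marker can be called absent. Within title code 3D the counts were 3 for perivascular macrophages, 1 for monocytes and neutrophils, 2 for endothelium and pericytes, 0 for astrocytes and 4 for neurons. There 577 of all 23238 rows were higher and 285 lower. The part of any of these cell types in the ligand differences was not tested.

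Markers of some cell types were also lower in Epo_Y than in Sham_Y mice, as 7 of the ligands were. In that comparison 7.83% of all rows were lower and 6.05% higher. Perivascular macrophage markers were lower in Epo_Y mice for 6 of 6, endothelial and pericyte markers for 6 of 8, monocyte and neutrophil markers for 4 of 7, oligodendrocyte markers for 2 of 8 and astrocyte markers for 1 of 6. Hippocampal neuron markers were higher in Epo_Y mice for 9 of 12. Microglial markers were lower for 2 of 9 (Itgam and Fcrls) and higher for 2 (Siglech and P2ry12). Within title code 3D the counts were 1, 2, 0, 1 and 0 for the lists that were lower, and 2 for neurons. There 333 of all 23238 rows were lower and 104 higher.

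In the Epo_Y mice the mean level of perivascular macrophage markers was 4.58, 4.91, 4.29, 4.90, 4.49 and 4.34 in replicates 1 to 6. Replicates 2 and 4 were highest, as for Ccl3, Ccl9 and Ccl12. Astrocyte markers had mean levels of 9.81, 10.22, 9.35, 10.59, 10.18 and 9.63 in the same mice, the same order of mice as for Ccl3. Endothelial and pericyte markers had mean levels of 7.26, 7.34, 6.55, 7.60, 7.03 and 6.98, and microglial markers 6.45, 6.55, 6.01, 6.55, 6.43 and 6.30. In both lists replicates 4 and 2 were highest and replicate 3 lowest. The mean level of monocyte and neutrophil markers was 2.89, 3.11, 3.27, 2.92, 2.79 and 2.97, with the highest value in replicate 3, which had the lowest Ccl3. The part of these cells in the spread was not tested.

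The genes whose profile over the 24 arrays was most like the mean profile of the ligands were found by the mean absolute difference of profiles scaled to mean 0 and SD 1. Over 14931 other rows with a single symbol the median of this difference was 1.10. The smallest differences were those of Msr1 (0.106), a macrophage scavenger receptor, Capg (0.117), an actin-capping protein, and Hmox1 (0.126), the enzyme that degrades haem. Tgm1, Ccn1, Sbno2, Atf3 and Cd52 followed, the last at 0.151. Msr1 averaged 3.67 ± 1.11 in Epo_Y mice, 6.53 ± 0.21 in Sham_Y mice, 2.93 ± 0.09 in Epo_N mice and 2.92 ± 0.07 in Sham_N mice (SD, n = 6 each). Its spread was widest in Epo_Y mice. Among the ligands, Ccl9 (0.176), Ccl4 (0.180) and Ccl12 (0.181) were nearest to their own mean profile and Ccl5 was farthest (0.737). The pair with the most similar profiles was Ccl3 and Ccl9 (0.137).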

How the data were processed

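The deposited table holds log2 expression levels, which the authors made with RMA in Affymetrix Expression Console, per the submitters' processing notes. RMA corrects background, normalizes by quantiles and summarises probes. The sources used here name no version, summary level or genome build for these values, so no coordinates are printed for array rows, and those of the promoter windows are RefSeq's own.

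Rows were named from the platform annotation. Of 23238 rows, 14939 carry 1 symbol, 989 several and 7310 none, and a ligand was taken from the row with its symbol alone. The limma package (3.58.1, in R 4.3.3) fitted all rows, dim ones included, to a mean for each of the 4 groups, which leaves 20 residual degrees of freedom. Calls rest on an adjusted p under 0.05, with the Benjamini-Hochberg method over all rows. Single ligands were also tested by an exact two-sided permutation test. The fit was tested on simulated data. Groups follow the start of the title, and replicates were numbered in accession order and pair no mice. P values set group differences against the spread between mice, which limma shares over the 4 groups. The litters of the mice are not labelled, and the number of arrays limits the precision.

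The ligands and gene lists were chosen with earlier results of these data known, so their counts are descriptions and no list was tested as a set. Named genes were the ligands, at most 4 called genes of each list by size of difference, and the 8 genes most like the ligands. Ttr, Ccr3, the other CC ligands, Tnfaip3, Nfkbia and 2 of the microglial markers were named after their values were seen. Alternatives covered scaling between arrays, dim rows, rows with 1 symbol, variance and weights, the title code, each array left out and the threshold. Weights by group and the fit without 2 arrays were added after seeing the data.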

Additional observations from a re-analysis of the deposited data

Results flagged for a closer look

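A far value was looked for in 36 pairs of a ligand row and a group, and chance gives such a value in about 1 of 20. Ccl2 in Epo_N replicate 2 was 4.42, and its gap to the next mouse was a large part of the range of that group. Ccl3 in Epo_N replicate 5 was 5.29, against 3.55 to 3.99 in the other Epo_N mice. The difference of Epo_Y from Epo_N departed from that of Sham_Y from Sham_N, by the interaction term in limma, for Ccl2 (-1.94), Ccl3 (-4.53), Ccl4 (-1.66), Ccl7 (-2.01), Ccl9 (-3.69), Ccl11 (-3.35) and Ccl12 (-3.03).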

How the results depend on the processing

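The numbers of ligands past the threshold were 7 in Sham_Y minus Sham_N, Epo_Y minus Sham_Y and Sham_Y minus Epo_N, and 0 in the other pairs, in each of the 24 fits that left out 1 array. The interaction gave 5 to 7 in those fits, and 5 without both arrays that stand apart and at an adjusted p of 0.01. With the brighter rows alone 2 ligands were called in each of Sham_Y minus Sham_N, Epo_Y minus Sham_Y, Sham_Y minus Epo_N and the interaction, since the other ligands lie below the level required and were not tested there. Of the 11619 rows tested there, 1982, 1269, 1266 and 1096 passed the threshold in the same direction, in that order. With the title code as a fixed block the interaction gave 4. Within title code 3D, which holds fewer arrays, the counts were 4 in Epo_Y minus Sham_Y, 3 in the interaction and 5 in Sham_Y minus Sham_N. Of all 23238 rows, 333, 55 and 577 passed the threshold in the same direction there. No ligand that passed the threshold had the opposite sign under an alternative. Centring each array on its median moved the median of all rows in Sham_Y minus Sham_N to -0.15, against 0.03 as deposited, and the share of rises among all rows called to 29.5%, against 60.3%. Quantile normalization gave 49.2%. The 7 ligands were called under both. The choice of the lowest-mean row gave no value, as no ligand had several rows. No paired analysis was possible because the replicate numbers follow accession order and the labels pair no mice.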
